A study of Zea mays with 137 samples.

Results

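Plants in which 1 of the long arms of chromosomes 3 and 4 was present in 3 copies while the other was present in 1 are described here, as 2 reciprocal combinations: trisomy 3L+monosomy 4L (labelled tri3L_mono4L, 4 plants) and monosomy 3L+trisomy 4L (labelled mono3L_tri4L, 2 plants). Both were set against the segregating diploid of the same pair of arms (3 plants), which carries 2 copies of each arm, so that 9 of the 137 samples of the series are described. The series measured the leaf transcriptome of maize aneuploids by RNA-seq in 9 pairs of chromosome arms. All plants were of the W22 inbred background, received no treatment, and were sampled at 45 d, and the plants of this pair came from a cross of a W22 female (*r1-r*) with a male carrying the B-A translocations TB-3La and TB-4Lb. Genes were assigned by position alone: a gene of chromosome 3 starting at 89547742 or beyond belonged to 3L, and a gene of chromosome 4 starting at 170408479 or beyond belonged to 4L. By this rule 3109 genes lay on 3L, 2057 on 4L, and 35484 on the rest of chromosomes 1 to 10. The deposited table gave 1 mean in FPKM for each gene and group and no value for a single plant, so the spread between plants is unknown, no test could be made, and every difference below is between group means without a replicate check.

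A B-A translocation joins an arm of a standard (A) chromosome to the centromere of the supernumerary B chromosome. Because the B centromere tends to nondisjoin at the second pollen mitosis, the sperm deliver either no copy or an additional copy of the attached arm, and monosomic and trisomic progeny appear beside diploid ones. In such plants a gene on the varied arm (*cis*) may follow its copy number, a dosage effect, or stay near the diploid level, dosage compensation, and genes on unvaried chromosomes (*trans*) may also be modulated. When the arms are varied in opposite directions, the total number of gene copies departs less from the diploid than when both are gained or lost, while the balance between the arms departs more.

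The groups also differed in what could not be separated from the karyotype. Each translocated chromosome carries B chromosome segments, which the diploid lacks. The collecting notes of the study give leaf number and inclusion of the mid-rib for 1 of the 2 sequenced plants of monosomy 3L+trisomy 4L, do not list the other, and give neither for those of trisomy 3L+monosomy 4L or the diploid, so leaf position and mid-rib cannot be told apart from karyotype in that group. FPKM values are relative within a library, and in a bulk leaf sample fewer cells of a type and less RNA per cell cannot be told apart. Summed over the genes of the table the means came to 613189 FPKM in trisomy 3L+monosomy 4L, 566032 FPKM in monosomy 3L+trisomy 4L, and 595465 FPKM in the diploid. These sums leave out 1 gene with a failed estimate.

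In trisomy 3L+monosomy 4L, genes of both arms lay close to their gene dosage. A ratio, here and throughout, is the mean FPKM of a group divided by the mean of the group it is set against, for genes whose means sum to at least 1 FPKM. The 1603 3L genes past this filter had a median ratio to the diploid of 1.46 (quartiles 1.24 and 1.82), near the 1.5 of a dosage effect in trisomy, and 90.3% of them were above 1. The 959 4L genes had a median of 0.533 (quartiles 0.455 and 0.641), near the 0.5 of a dosage effect in monosomy, and 93.8% were below 1. Within 10% of the dosage ratio lay 28.9% of 3L genes and 32.2% of 4L genes, while 6.67% and 3.55% lay within 10% of the diploid level. At least 2-fold above the diploid were 314 3L genes (19.6%), against 8.68% of all 20262 genes compared, and at most 0.5 of it were 386 4L genes (40.3%), against 3.57% of all genes. In summed expression the 3L genes reached 64733 FPKM in trisomy 3L+monosomy 4L and 45656 FPKM in the diploid, a ratio of 1.42, and the 4L genes reached 13667 FPKM and 26600 FPKM, a ratio of 0.514.

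**Figure D1:**
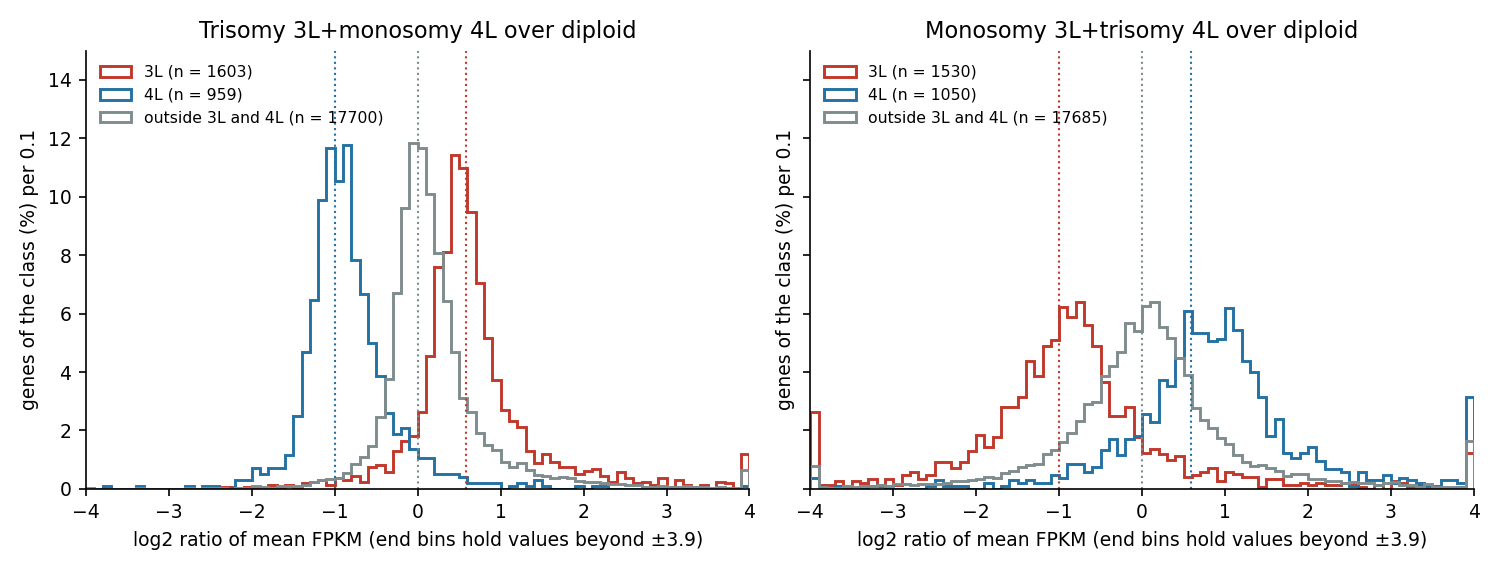
Distribution of the log2 ratio of mean FPKM to the diploid for genes of 3L (red), genes of 4L (blue) and genes outside both arms (grey), in trisomy 3L+monosomy 4L (left) and monosomy 3L+trisomy 4L (right), as a percentage of each class per bin of 0.1. Dotted lines mark the gene dosage of each class; the classes swap sides between the panels, and every class is broader in monosomy 3L+trisomy 4L.

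In monosomy 3L+trisomy 4L the arms took the opposite places, with a wider spread and with 4L above its dosage in relative FPKM. Such ratios do not give the level per genome. Past the filter were 1530 3L genes, whose median was 0.541 (quartiles 0.380 and 0.749), and 85.4% were below 1. The median of 1050 4L genes was 1.78 (quartiles 1.29 and 2.50), higher than the 1.5 of a dosage effect, and 85.5% were above 1. Of the 4L genes, 172 (16.4%) lay within 10% of 1.5, and nearly as many, 165 (15.7%), lay within 10% of 2. For the trisomic 3L of the reciprocal combination the counts were 463 (28.9%) within 10% of 1.5 and 157 (9.79%) within 10% of 2. At least 2-fold above the diploid were 441 4L genes (42.0%), against 14.1% of all 20265 genes compared, and at most 0.5 of it were 661 3L genes (43.2%), against 12.8%.

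The median gene and the summed expression of the trisomic 4L did not give the same value. The summed 4L level was 40391 FPKM in monosomy 3L+trisomy 4L and 26600 FPKM in the diploid, a ratio of 1.52, beside the median gene ratio of 1.78. By level, taken as the mean over the 3 groups, 4L genes had medians of 2.01 under 1 FPKM, 1.60 at 1 to 3 FPKM, 1.76 at 3 to 10 FPKM, 1.96 at 10 to 30 FPKM, 1.64 at 30 to 100 FPKM, and 1.58 over 100 FPKM (45 genes), without a trend over the whole range. Genes outside both arms had 1.07 at 10 to 30 FPKM (5098 genes) and 0.824 over 100 FPKM (822 genes). Divided by the *trans* median of the whole group, 4L in monosomy 3L+trisomy 4L stood at 1.71 and 3L in trisomy 3L+monosomy 4L at 1.38, while the monosomic arms stood at 0.520 for 3L and 0.504 for 4L. The summed level of the monosomic 3L was 22459 FPKM, 0.492 of the diploid.

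The step in ratio lay at the boundary, and every window inside an arm was on the side of its gene dosage. In windows of 20 Mb, the medians of the 8 windows of 3L lay between 1.39 and 1.52 in trisomy 3L+monosomy 4L and between 0.486 and 0.575 in monosomy 3L+trisomy 4L. The medians of the 5 windows of 4L lay between 0.516 and 0.551 in trisomy 3L+monosomy 4L and between 1.55 and 2.05 in monosomy 3L+trisomy 4L, the window from 20 to 40 Mb inside the arm being the one at 2.05 (261 genes) and the next one, from 40 to 60 Mb, the one at 1.55 (143 genes). On the unvaried remainder of chromosome 3 the window medians were 0.962 to 1.06 in trisomy 3L+monosomy 4L and 0.840 to 1.12 in monosomy 3L+trisomy 4L, and on that of chromosome 4 they were 1.03 to 1.19 and 0.975 to 1.09.

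The step was visible within 20 genes. The 20 genes just inside the 3L boundary had a median of 1.37 in trisomy 3L+monosomy 4L and 0.506 in monosomy 3L+trisomy 4L, while the 20 just outside it had 0.999 and 1.22. For 4L the 20 genes inside had medians of 0.523 and 1.58, and the 20 outside had 0.952 and 0.976. Single genes at the edge were more variable. Zm00004b016971, the first 3L gene past the filter, was at 55.9 FPKM in trisomy 3L+monosomy 4L, 43.6 FPKM in monosomy 3L+trisomy 4L, and 50.4 FPKM in the diploid, close to the diploid in both combinations. Its neighbour outside the arm, Zm00004b016968, was at 83.1, 77.8, and 41.2 FPKM in the same groups, and ranged from 2.45 to 604 FPKM among the 8 diploid means of the other pairs, which come from tables normalized separately. The first 4L gene, Zm00004b022492, had 4.18 FPKM in trisomy 3L+monosomy 4L, 14.6 FPKM in monosomy 3L+trisomy 4L, and 8.74 FPKM in the diploid, and the last gene outside 4L, Zm00004b022485, had 0.610, 0.646, and 0.781 FPKM.

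**Figure D2:**
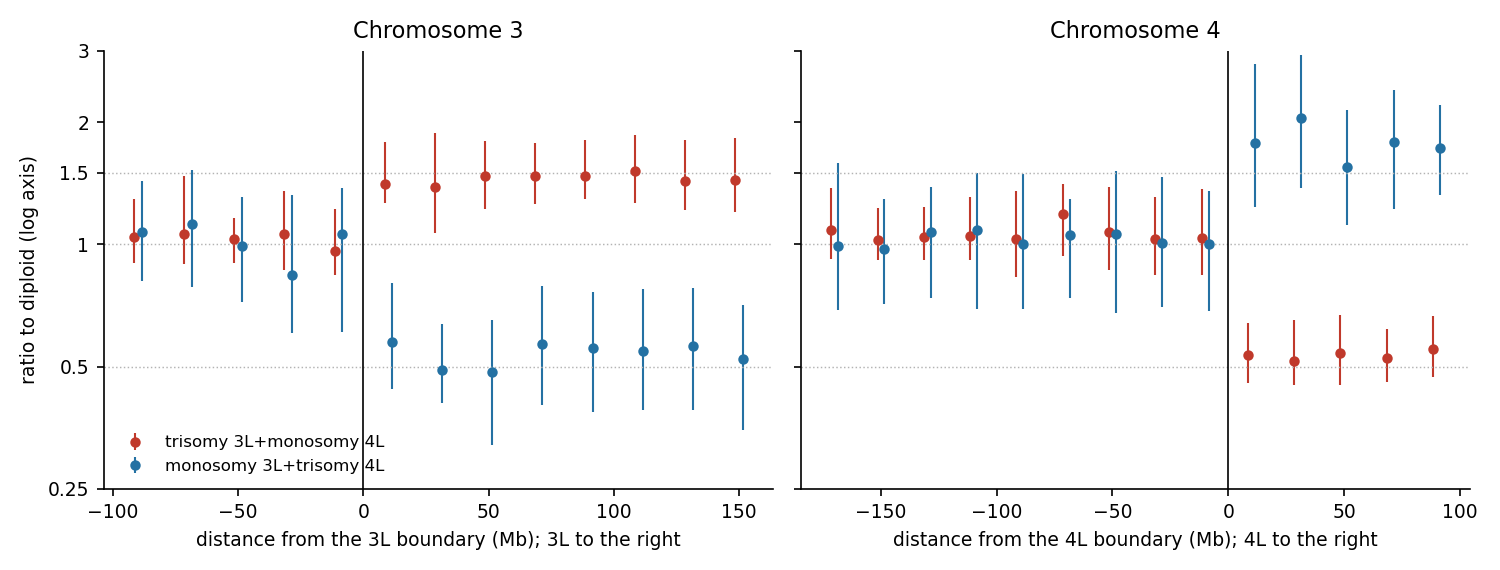
Median ratio to the diploid (points) with quartiles (bars) of genes in windows of 20 Mb along chromosomes 3 and 4, against distance from the arm boundary, in trisomy 3L+monosomy 4L (red) and monosomy 3L+trisomy 4L (blue), on a log axis. The 8 windows of 3L lie at 1.39 to 1.52 in red and 0.486 to 0.575 in blue, the 5 windows of 4L at 0.516 to 0.551 in red and 1.55 to 2.05 in blue, and all windows left of the boundary at 0.840 to 1.19.

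The combinations were next divided by each other, gene by gene, which removes the diploid from the ratio and puts gene dosage at 3 for 3L and at 0.333 for 4L. For 1605 3L genes the median was 2.71 in trisomy 3L+monosomy 4L over monosomy 3L+trisomy 4L (quartiles 1.93 and 4.22), and 93.0% were higher in trisomy 3L+monosomy 4L. For 1031 4L genes it was 0.296 (quartiles 0.213 and 0.427), equal to a median of 3.38 for the inverse ratio, and 95.1% were lower in trisomy 3L+monosomy 4L. For the 17992 genes outside both arms the median was 1.02 (quartiles 0.75 and 1.5). At least 2-fold higher in trisomy 3L+monosomy 4L were 1167 of the 3L genes (72.7%), against 18.5% of all 20628 genes compared, and at most 0.5 were 834 of the 4L genes (80.9%), against 11.9%. At least 8-fold higher were 150 3L genes, against 2.49% of all genes compared, and at least 8-fold lower were 79 4L genes, against 1.35%. Of these arm genes, 23 of 3L and 10 of 4L were at 0 in the lower group. Within 10% of 1 lay 38 3L genes (2.37%) and 18 4L genes (1.75%), against 16.7% of genes outside both arms. Ratios past 2-fold in the direction opposite to gene dosage were less frequent in the arms than among all genes compared. They were found for 38 3L genes (2.37%), against 11.9% of all genes and 8.82% of genes outside both arms. On 4L they were found for 19 genes (1.84%), against 18.5% and 14.6%. The shares of all genes include the other arm, whose gene dosage lies in that direction.

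**Figure D3:**
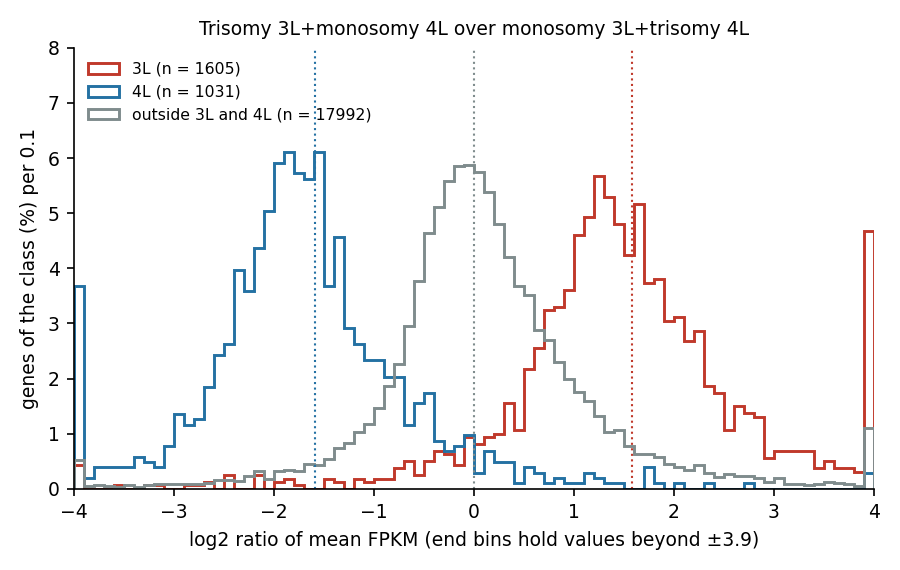
Distribution of the log2 ratio of trisomy 3L+monosomy 4L over monosomy 3L+trisomy 4L for genes of 3L (red), 4L (blue) and the rest of the genome (grey), as a percentage of each class per bin of 0.1, with gene dosage as dotted lines. The medians of the arms, 2.71 for 3L and 0.296 for 4L, lie on either side of the 1.02 of the rest, and the end bins hold the genes beyond the axis.

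Several of the most abundant genes of the arms departed from this pattern in monosomy 3L+trisomy 4L. The files pair no gene names with identifiers, and none of the identifiers matched the reference table, so these genes are given by identifier. Zm00004b017554, the 3L gene with the highest diploid mean, was at 3257 FPKM in trisomy 3L+monosomy 4L, 175 FPKM in monosomy 3L+trisomy 4L, and 3058 FPKM in the diploid, ratios of 1.07 and 0.0573. The 8 diploid means of the other pairs ranged from 2297 to 3987 FPKM for it. Zm00004b017544 behaved alike, with 1761, 271, and 1441 FPKM in the same order of groups. Zm00004b019534 was below the diploid in both combinations, at 1706 and 941 FPKM, against 2138 FPKM in the diploid.

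On 4L, Zm00004b024196 was at 944 FPKM in trisomy 3L+monosomy 4L, 2122 FPKM in monosomy 3L+trisomy 4L, and 1807 FPKM in the diploid, in the order of gene dosage. Zm00004b024487 was not: it was at 457 FPKM in trisomy 3L+monosomy 4L and at 16.3 FPKM in monosomy 3L+trisomy 4L despite the additional copy, against 1203 FPKM in the diploid and 642 to 2107 FPKM in the 8 other diploid means. Zm00004b024117 was at 312 and 820 FPKM in the combinations, against 998 FPKM in the diploid. These 6 genes were chosen for the highest diploid mean, which is the denominator of the ratio and so favours low ratios.

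The copy number of each arm was also varied beside both states of the other, since double trisomy and double monosomy of 3L and 4L were sampled in the same pair (4 and 3 plants). With 3L in 3 copies, the median of 3L genes in trisomy 3L+monosomy 4L over double trisomy was 1.04, and that of genes outside both arms was 1.11. With 3L in 1 copy, monosomy 3L+trisomy 4L over double monosomy gave 1.02 for 3L and 0.986 for the rest. Relative to the rest of the genome, the 3L genes were at 0.933 in the first ratio, in which 4L has fewer copies, and at 1.04 in the second, in which 4L has more. For the trisomic 4L, in monosomy 3L+trisomy 4L over double trisomy, 4L genes had a median of 1.27 and genes outside both arms 1.09, and their quotient was 1.16. The monosomic 4L gave 0.987 in trisomy 3L+monosomy 4L over double monosomy, and the rest 0.975.

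Across copy numbers, 3 copies over 1, the 3L genes had a median of 2.67 with 4L in 1 copy (trisomy 3L+monosomy 4L over double monosomy). The 4L genes had 3.47 with 3L in 1 copy (monosomy 3L+trisomy 4L over double monosomy). With the other arm in 3 copies, the inverse ratios stood at 2.64 for 3L (monosomy 3L+trisomy 4L as the group with 1 copy) and 2.66 for 4L (trisomy 3L+monosomy 4L as the group with 1 copy). Of these 4 ratios, the 1 with monosomy 3L+trisomy 4L as the group with 3 copies was above 3. Divided by the median outside both arms, 3 copies over 1 gave 2.74 for 3L and 3.51 for 4L, with the other arm in 1 copy. With the other arm in 3 copies, 1 copy over 3 gave 0.347 for 3L and 0.338 for 4L, near the gene dosage of 0.333.

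Genes of the B chromosome gave a readout of the translocations that the assignment of arms did not use. Of the 686 B chromosome genes in the table, 91 had a mean of at least 1 FPKM in trisomy 3L+monosomy 4L, 94 in monosomy 3L+trisomy 4L, 129 in double trisomy, 24 in double monosomy, and 7 in the diploid. Their summed level was 494 FPKM in trisomy 3L+monosomy 4L, 605 FPKM in monosomy 3L+trisomy 4L, 1055 FPKM in double trisomy, 163 FPKM in double monosomy, and 51 FPKM in the diploid. The reciprocal combinations, with 1 trisomic arm each, thus lay near each other and between double trisomy and double monosomy.

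A total of 70 B chromosome genes, selected for at least 1 FPKM in both reciprocal combinations and under 1 FPKM in the diploid, were of 2 kinds by their level in double monosomy. For 57 of them the double monosomy mean was under 0.5 FPKM, and their sum was 279 FPKM in trisomy 3L+monosomy 4L, 321 FPKM in monosomy 3L+trisomy 4L, and 640 FPKM in double trisomy, so that the median gene had 0.420 and 0.493 of its double trisomy level. Zm00044a000177 is an example, at 19.0, 17.2, and 49.5 FPKM in these groups, 0.147 FPKM in double monosomy, and 0 in the diploid. The other 13 were also present in double monosomy, with a sum of 93.1 FPKM there and 184 FPKM in double trisomy. Their sums were 103 FPKM in trisomy 3L+monosomy 4L and 120 FPKM in monosomy 3L+trisomy 4L. Of the 93.1 FPKM, Zm00044a000652 alone gave 49.1 FPKM. It was at 33.8 FPKM in trisomy 3L+monosomy 4L, 28.5 FPKM in monosomy 3L+trisomy 4L, 49.1 FPKM in double trisomy, and 0 in the diploid. Zm00044a000307 and Zm00044a000567 differed between the reciprocal combinations, at 0.203 and 0 FPKM in trisomy 3L+monosomy 4L and 8.56 and 7.15 FPKM in monosomy 3L+trisomy 4L. These 4 B chromosome genes were chosen after their values were seen.

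Outside 3L and 4L, the medians of both combinations lay slightly above the diploid, but the spread differed. For 17700 genes in trisomy 3L+monosomy 4L the median was 1.06, and the interquartile range of the log2 ratio was 0.51. The 17685 genes compared in monosomy 3L+trisomy 4L had a median of 1.04 and an interquartile range of 0.95. Within 10% of the diploid lay 32.7% of genes in trisomy 3L+monosomy 4L and 17.0% in monosomy 3L+trisomy 4L. No chromosome stood apart. Over the 10 chromosomes, with the unvaried parts of 3 and 4 taken alone, medians lay between 1.04 and 1.07 in trisomy 3L+monosomy 4L and between 1.01 and 1.07 in monosomy 3L+trisomy 4L.

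More *trans* genes were at least 2-fold above the diploid than at most 0.5 of it in both combinations. In trisomy 3L+monosomy 4L, 1433 *trans* genes (8.10%) were at least 2-fold above the diploid and 314 (1.77%) were at most 0.5 of it. In monosomy 3L+trisomy 4L the counts were 2312 (13.1%) and 1900 (10.7%). Divided by the *trans* median of the group, they were 2151 and 2053 there, a near even split (51.2% high). Scaled likewise, trisomy 3L+monosomy 4L had 1292 and 365 (78.0% high). At least 8-fold above the diploid were 199 *trans* genes in trisomy 3L+monosomy 4L and 472 in monosomy 3L+trisomy 4L, and over all genes compared, arms included, the shares with such a ratio were 1.17% and 2.75%. Of these *trans* genes, 52 and 87 were at 0 in the diploid, which puts them past any fold. At least 8-fold below the diploid were 15 *trans* genes in trisomy 3L+monosomy 4L and 267 in monosomy 3L+trisomy 4L, and over all genes compared the shares were 0.0839% and 1.69%. Of these *trans* genes, 5 and 40 were at 0 in the combination. Between the combinations, 2628 *trans* genes (14.6%) were at least 2-fold higher in trisomy 3L+monosomy 4L and 1587 (8.82%) were at most 0.5. In this comparison the share at or above 2-fold was 22.9% at 1 to 3 FPKM, 8.81% at 10 to 30 FPKM, and 18.1% over 100 FPKM. Against the diploid, the high genes of trisomy 3L+monosomy 4L were concentrated at low level. Their share was 16.4% among genes of 1 to 3 FPKM, 3.40% among those of 10 to 30 FPKM, and 2.43% among those over 100 FPKM. In monosomy 3L+trisomy 4L the share at or below 0.5 was 17.6% at 1 to 3 FPKM, 6.73% at 10 to 30 FPKM, and 16.4% over 100 FPKM, the bin whose median was 0.824. High genes were fewer than low ones in the upper bins of that group. They numbered 188 against 208 at 30 to 100 FPKM, and 70 (8.52%) against 135 over 100 FPKM.

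To judge these spreads, the diploid means of the 8 other pairs were divided by the diploid mean of this pair over the *trans* genes past the filter in each ratio (17257 to 17941 genes). These ratios, of plants labelled diploid, grown as controls of other pairs and normalized in separate tables, had interquartile ranges between 0.38 and 0.76 and medians between 0.893 and 1.05. The 0.51 of trisomy 3L+monosomy 4L lay inside this range, above 3 of the 8 controls, and the 0.95 of monosomy 3L+trisomy 4L lay above all 8. Double trisomy had 0.47, inside the range, and double monosomy had 0.88, which also lay above all 8. At least 2-fold above the diploid were 2.14% to 13.9% of *trans* genes in the controls, a range that holds the 8.10% of trisomy 3L+monosomy 4L and the 13.1% of monosomy 3L+trisomy 4L. More genes were high than low in 7 of the 8 controls as well, so an excess of high calls against this diploid is not limited to aneuploid plants. At most 0.5 of it were 1.88% to 6.01% in the controls, and the 1.77% of trisomy 3L+monosomy 4L lay below that range while the 10.7% of monosomy 3L+trisomy 4L lay above it. In the controls, 35 to 385 genes were at least 8-fold above the diploid and 19 to 61 at least 8-fold below it. The 199 high genes of trisomy 3L+monosomy 4L lay inside the first range and its 15 low genes below the second. Monosomy 3L+trisomy 4L, with 472 and 267, lay above both ranges. The arms of the controls had medians of 0.975 to 1.01 relative to the rest of their genome, so none approached the dosage ratios above. The mean of monosomy 3L+trisomy 4L rests on 2 plants, as does that of the 6L+9S control, whose interquartile range was 0.61. The part of leaf position, mid-rib, and plant number in the wider spread was not tested.

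**Figure D4:**
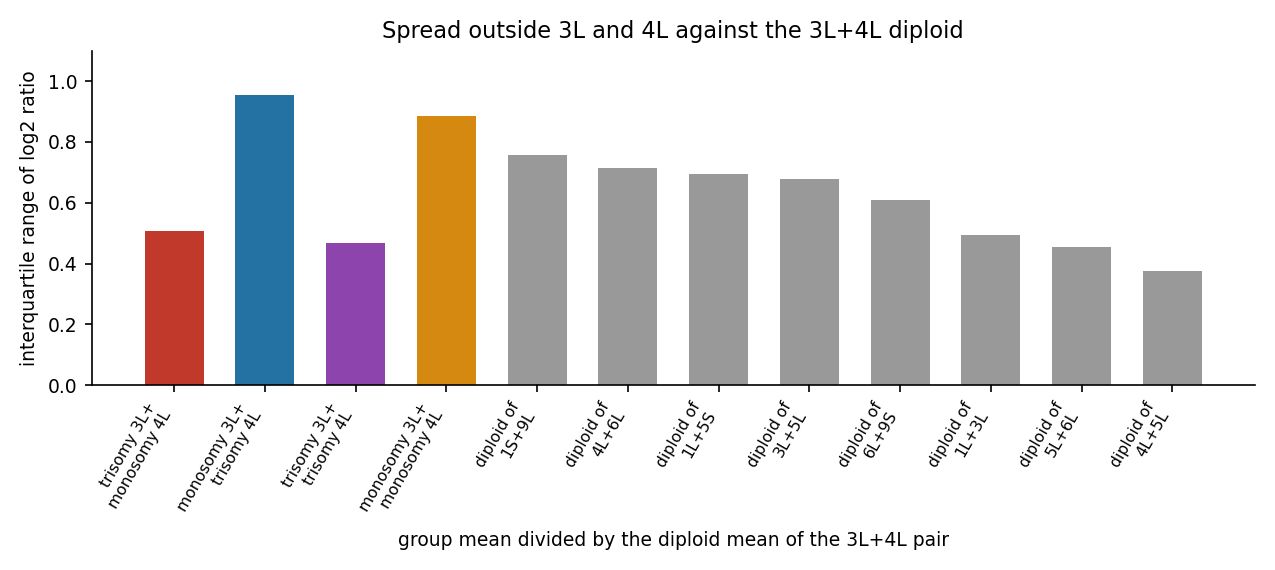
Interquartile range of the log2 ratio to the diploid mean of the 3L+4L pair, for genes outside 3L and 4L, in the 4 aneuploid combinations of the pair (coloured bars, left) and in the diploid means of the 8 other pairs (grey bars, right). Trisomy 3L+monosomy 4L, at 0.51, is among the 8 controls (0.38 to 0.76). Monosomy 3L+trisomy 4L, at 0.95, and double monosomy, at 0.88, are above them all.

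The 10 genes for which the study designed droplet digital PCR assays, an absolute count of transcripts, are the only ones with names. One of them lies on 3L: Zm00004b018833, the photosystem II reaction centre W protein, a nuclear-encoded subunit of the photosystem of chloroplasts and the leaf gene checked here. Its mean was 990 FPKM in trisomy 3L+monosomy 4L, 115 FPKM in monosomy 3L+trisomy 4L, and 601 FPKM in the diploid, ratios of 1.65 and 0.191. The gene was thus expressed in every group, as in leaf, but in monosomy 3L+trisomy 4L it was below what 1 of 2 copies gives. The 8 other diploid means lay between 736 and 1465 FPKM, all above the diploid of this pair. In the groups with the same number of 3L copies it was at 1143 FPKM in double trisomy and 446 FPKM in double monosomy.

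Of the 9 named genes outside the varied arms, 2 were above the diploid in both combinations by more than 1.5-fold. The transcript of *glk8*, a G2-like (GOLDEN2-like) transcription factor, of a family that includes regulators of chloroplast development, had 59.3 FPKM in trisomy 3L+monosomy 4L and 81.9 FPKM in monosomy 3L+trisomy 4L, against 32.3 FPKM in the diploid. That of *px5*, a peroxidase, a class of enzymes that oxidize substrates with hydrogen peroxide, had 328 FPKM and 437 FPKM, against 205 FPKM. Both combinations were thus on the high side, by ratios of 1.84 and 2.54 for *glk8* and 1.60 and 2.13 for *px5*, but the 8 other diploid means spanned 22.8 to 70.5 FPKM for *glk8* and 132 to 476 FPKM for *px5*. Of these 4 means, the *glk8* mean of monosomy 3L+trisomy 4L alone lay outside its range.

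The 1-phosphatidylinositol-3-phosphate 5-kinase gene, whose product phosphorylates a membrane lipid of endosomes, was low in both combinations. Its means were 18.3 FPKM in trisomy 3L+monosomy 4L and 15.5 FPKM in monosomy 3L+trisomy 4L, against 30.4 FPKM in the diploid and 15.7 to 48.0 FPKM in the 8 other controls, a range that the mean of monosomy 3L+trisomy 4L missed by little. The gene *sat4*, a serine acetyltransferase of cysteine synthesis, was at 41.8 FPKM in trisomy 3L+monosomy 4L and 28.4 FPKM in monosomy 3L+trisomy 4L, against 45.6 FPKM in the diploid. The other 5 genes had ratios between 0.857 and 1.30 in both combinations. They were *ccp1*, a cysteine protease (1073 and 844 FPKM, against 882 FPKM), the SNF7 family gene, of the machinery that sorts membrane proteins (61.6 and 49.2 FPKM, against 57.4 FPKM), an annexin, a calcium-dependent membrane-binding protein (33.3 and 37.0 FPKM, against 28.3 FPKM), a histone-binding WD repeat gene of the MSI1 family (21.7 and 26.8 FPKM, against 23.3 FPKM), and *ZmMed12b*, of the Mediator complex of RNA polymerase II (16.5 and 19.5 FPKM, against 18.1 FPKM). The highest of the 8 other diploid means was 33.2 FPKM for the annexin, which both combinations exceeded, 26.0 FPKM for the MSI1 family gene and 19.46 FPKM for *ZmMed12b*, which monosomy 3L+trisomy 4L exceeded, in *ZmMed12b* with 19.50 FPKM.

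**Figure D5:**
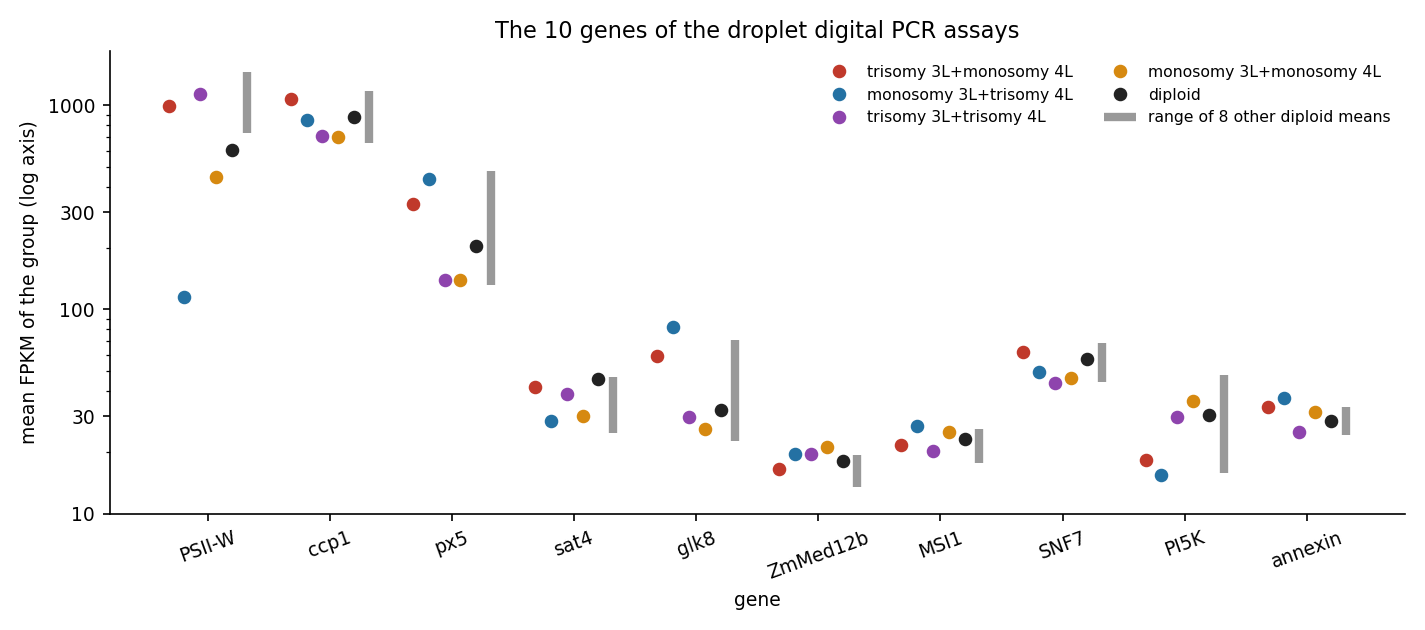
Mean FPKM, on a log axis, of the 10 genes with droplet digital PCR assays in the 4 aneuploid combinations of 3L and 4L and the diploid, each point 1 group mean, with the range of the diploid means of the 8 other pairs as a grey bar. The 3L gene PSII-W lies at 115 FPKM in monosomy 3L+trisomy 4L, below its bar and all other groups, and *glk8*, annexin, MSI1, and *ZmMed12b* in the same group lie above their bars, the last by less than the width of a point.

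The largest *trans* ratios among genes with at least 1 FPKM in both groups compared were far beyond any dosage ratio. Zm00004b007943 and Zm00004b007944, of the same region of chromosome 2, had the lowest ratios of trisomy 3L+monosomy 4L to the diploid. Zm00004b007943 was at 2.72 FPKM in trisomy 3L+monosomy 4L and 9.85 FPKM in monosomy 3L+trisomy 4L, against 144 FPKM in the diploid. Zm00004b007944 was at 17.1 and 2.26 FPKM, against 168 FPKM. Both were low in double monosomy too (5.02 and 4.59 FPKM) and high in double trisomy (111 and 128 FPKM), so that the 3 combinations with a monosomic arm stood below the 8 other diploid means, which were 37.5 to 167 FPKM for Zm00004b007943 and 78.6 to 154 FPKM for Zm00004b007944.

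The highest ratios of trisomy 3L+monosomy 4L were those of Zm00004b038249, at 57.1 FPKM in trisomy 3L+monosomy 4L and 1.44 FPKM in the diploid, and Zm00004b039184, at 181 FPKM and 5.79 FPKM. Zm00004b039184 was also among the highest in monosomy 3L+trisomy 4L, at 655 FPKM, but the 8 other diploid means for it ranged from 4.24 to 269 FPKM. In contrast Zm00004b038249 was at 0.175 FPKM in monosomy 3L+trisomy 4L and at 0 to 13.1 FPKM in the 8 controls.

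The other extreme ratios were taken from the comparisons that include monosomy 3L+trisomy 4L, so that group is in each of them by selection. Zm00004b014563 was at 1.8 FPKM in trisomy 3L+monosomy 4L and 179 FPKM in monosomy 3L+trisomy 4L, against 1.41 FPKM in the diploid, and the highest of the 8 other diploid means was 10.0 FPKM. Zm00004b030361 was at 1.44 FPKM in trisomy 3L+monosomy 4L and 47.4 FPKM in monosomy 3L+trisomy 4L. On the low side, Zm00004b037263 was at 61.5 FPKM in trisomy 3L+monosomy 4L and 1.27 FPKM in monosomy 3L+trisomy 4L, against 70.4 FPKM in the diploid and 19.5 to 93.7 FPKM in the 8 controls, and Zm00004b003080 was at 113 and 2.56 FPKM, against 129 FPKM. A last gene, chosen after its values were seen, was Zm00004b026853 of chromosome 8, the most abundant in monosomy 3L+trisomy 4L. Its mean was 763 FPKM in trisomy 3L+monosomy 4L and 12868 FPKM in monosomy 3L+trisomy 4L, against 277 FPKM in the diploid and at most 1448 FPKM in the 8 other controls.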

How the data were processed

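Leaf RNA of 45-d-old plants was sequenced by the study as stranded, rRNA-depleted libraries. The authors used fastp for trimming, discarded organelle reads, mapped the remaining ones by STAR to W22 plus B chromosome sequence, and made group means with Cuffdiff, as the labels and methods state; tool versions and library scaling are not given in the sources used here. The deposited values are FPKM, 1 per gene and group, so depth and the spread between plants are unknown from these tables. The deposited fold changes, test statistics, p-values, q-values, and significance calls were not used. From the FPKM means, ratios without a pseudocount were computed in Python 3.11.15 with pandas and numpy for genes whose 2 means sum to at least 1 FPKM, as medians, quartiles, and counts at 2-fold and 8-fold. The diploid mean is shared by the comparisons with it. A row without a gene name and 1 gene with a failed estimate were left out. The calculations were tested on simulated data. Coordinates are those of the deposited tables (W22). Named genes were those of the droplet digital PCR assays, the 2 highest and 2 lowest *trans* ratios of each comparison, the 3 most abundant genes of each arm, and those flanking the boundaries. The members and gene lists were chosen with earlier results of these data known. In judging the alternatives, a median or an interquartile range counted as moved where it left the 95% order-statistic interval over genes, and a count where it differed by more than 1.5-fold.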

Additional observations from a re-analysis of the deposited data

How the results depend on the processing

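No paired analysis was possible because the tables hold 1 mean per group, and for the same reason no plant could be left out. Of 100 values of the medians, spreads, and 2-fold counts recomputed under other settings, 50 held, 49 moved, and 1 crossed 1. For genes of the arms in trisomy 3L+monosomy 4L over the diploid, a minimum sum of 10 FPKM gave medians of 1.44 for 3L and 0.517 for 4L, and a pseudocount of 1 FPKM gave 1.4 and 0.585. In monosomy 3L+trisomy 4L the pseudocount gave 0.606 for 3L and 1.64 for 4L. In trisomy 3L+monosomy 4L over monosomy 3L+trisomy 4L, 3L had 2.60 without a filter, 2.57 with both means above 0.5 FPKM, and 2.24 with the pseudocount, and 4L had 0.309 without a filter, 0.282 at a sum of 10, and 0.362 with the pseudocount. No arm median moved when genes closer than 10 Mb to a boundary were excluded. Outside both arms, the median of trisomy 3L+monosomy 4L was 1.06 without a filter, 1.04 at a sum of 10, 1.05 with both means above 0.5, and 1.05 with the pseudocount, and that between the combinations was 0.990 at a sum of 10. Medians against double monosomy also crossed 1 at a sum of 10: trisomy 3L+monosomy 4L over double monosomy, at 1.001 for 4L and 1.0003 for the rest, and monosomy 3L+trisomy 4L over double monosomy, at 1.03 for the rest.

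The *trans* interquartile range (log2) without a filter, at a sum of 10, with both means above 0.5, and with the pseudocount was 0.60, 0.40, 0.47, and 0.42 in trisomy 3L+monosomy 4L, 1.05, 0.79, 0.87, and 0.78 in monosomy 3L+trisomy 4L, and 1.11, 0.84, 0.92, and 0.81 between the combinations. That of monosomy 3L+trisomy 4L lay above all 8 controls under each. The 2-fold counts depended most on low genes, and the number of genes compared also differed. It was 21506 without a filter, 11488 at a sum of 10, and 16923 with both means above 0.5 in trisomy 3L+monosomy 4L. With the pseudocount or at 1.5-fold it was 17700 there, 17685 in monosomy 3L+trisomy 4L, and 17992 between the combinations. At a sum of 10 it was 11469 in monosomy 3L+trisomy 4L. Between the combinations it was 11707 at a sum of 10 and 21837 without a filter. At or above 2-fold, trisomy 3L+monosomy 4L had 2378 genes without a filter, 381 at a sum of 10, 955 with both means above 0.5, 735 with the pseudocount, and 2799 at 1.5-fold. At the low end it had 944 without a filter, 90 at a sum of 10, 108 with the pseudocount, and 853 at 1.5-fold. Monosomy 3L+trisomy 4L had 1036 high genes at a sum of 10 and 3991 at 1.5-fold, and 878 low genes at a sum of 10, 1227 with the pseudocount, and 3521 at 1.5-fold. Between the combinations, 1235 were high at a sum of 10, 1731 with the pseudocount, and 4510 at 1.5-fold, and 2556 were low without a filter, 708 at a sum of 10, 971 with the pseudocount, and 3216 at 1.5-fold. Why these values moved was not tested beyond the number of low genes each alternative admits. The B chromosome count of double monosomy was 37 at 0.5 FPKM and 12 at 2 FPKM, thresholds chosen after seeing the data.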

Other observations

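The effect of the copy number of an arm on genes outside 3L and 4L can be read at both states of the other arm, in ratios that share no group. The comparison was chosen after seeing the data and has no test. Over 16119 genes with more than 0.5 FPKM in all 4 combinations, the log2 ratio for 3 over 1 copies of 3L with 4L in 1 copy (trisomy 3L+monosomy 4L over double monosomy) and with 4L in 3 copies (double trisomy over monosomy 3L+trisomy 4L) had a Pearson r of 0.16 across genes, which are not independent replicates. At least 2-fold higher with 3 copies of 3L were 1191 and 1201 genes, and 237 genes were in both lists (19.9% and 19.7% of them), where the lists hold 7.39% and 7.45% of all these genes. At most 0.5 were 1056 and 1701 genes (6.55% and 10.6% of all these genes), with 325 in both lists (30.8% and 19.1% of them). In opposite directions, 284 of the 16119 genes passed 2-fold, as members of the lists of 1191 and 1701 genes or of 1056 and 1201 genes. For 4L, the ratios with 3L in 1 copy (monosomy 3L+trisomy 4L over double monosomy) and in 3 copies (double trisomy over trisomy 3L+monosomy 4L) had an r of -0.06, and 37 genes were in both lists of 855 and 235 genes at least 2-fold higher (4.33% and 15.7%), where the lists hold 5.30% and 1.46% of all these genes. At most 0.5 were 1738 and 1291 genes (10.8% and 8.01% of all these genes), with 277 in both lists (15.9% and 21.5% of them). In opposite directions, 292 genes passed 2-fold. Over the 9961 genes with at least 5 FPKM in all 4 combinations, r was 0.21 for 3L and -0.07 for 4L.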
